A study of Mus musculus with 9 samples.

Results

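A set of 42 genes that encode chromatin remodellers and their partner subunits were examined in Ezh2-deficient and WT mouse regulatory T cells (Tregs), the Foxp3-expressing CD4 T cells that restrain immune responses. They were taken by symbol as a named list of the SWI/SNF, ISWI, CHD, NuRD and INO80-type families with Hells and Atrx. No measured value entered the rule, but the list was chosen with earlier results of these data known. All 42 were found among the 43432 genes of the count table, and 40 of them passed the filter on low counts that left 13685 genes for testing.

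Chromatin remodellers use ATP to slide, evict or exchange nucleosomes, the spools of histone protein that DNA is wound on, and so set which stretches of DNA other proteins can reach. SWI/SNF complexes (also called BAF and PBAF) mostly open chromatin at enhancers and promoters and are the classical opponents of Polycomb silencing. NuRD joins a CHD-type ATPase to histone deacetylases and mostly closes chromatin, ISWI complexes space nucleosomes evenly, and INO80, SRCAP and EP400 complexes handle the histone variant H2A.Z. Ezh2 is the histone methyltransferase of Polycomb repressive complex 2 and marks histone H3 at lysine 27.

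All mice were C57BL/6 and carried Foxp3-Cre-GFP, a Cre recombinase and fluorescent protein driven by Foxp3, and R26-LSL-RFP, a red fluorescent reporter that Cre switches on. The 4 Ezh2-deficient samples had the genotype Ezh2-fl/fl, so that Cre can delete Ezh2 in cells that express Foxp3. WT replicates 2 to 5 were Ezh2-+/+ and WT replicate 1 was Ezh2-fl/+, so the controls carried Cre as well and 1 of them could lose 1 Ezh2 allele. CD62L-high Tregs were sorted, activated on beads coated with antibodies to CD3 and CD28, and grown with 2000 U/ml interleukin-2 to day 4, and the series describes the samples as biological replicates. The labels name no further treatment, and the mice's ages are not stated in them. In what follows, values of a gene are listed by library in the order Ezh2-deficient replicates 1 to 4, then WT replicates 1 to 5.

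Libraries held 32469450 to 62201921 counts. Ezh2 itself was at 153, 167, 164 and 159 CPM (reads scaled to library size) against 268, 332, 288, 234 and 360 CPM (log2 fold change -0.88, SE 0.11, edgeR adjusted p = 0.000363). Foxp3 was at 1647 to 1968 CPM in Ezh2-deficient and 1293 to 1542 CPM in WT libraries (log2 fold change 0.30, SE 0.09, edgeR adjusted p = 0.0313). Xist and the Y-linked Ddx3y placed 2 Ezh2-deficient and 2 WT libraries as female. A hypoxia score, the mean standardised level of 22 hypoxia and glycolysis genes, was 0.62 to 0.97 in Ezh2-deficient replicates 1 and 4 and WT replicates 1, 2 and 4, and -1.07 to -0.85 in the other 4 libraries. A proliferation score was lowest in Ezh2-deficient replicate 4 (-1.04) and WT replicate 4 (-1.18), and Cd8a peaked in these libraries (79.9 and 97.6 CPM). Summed CPM of marker lists in Ezh2-deficient against WT libraries were 9475 to 10640 against 8675 to 9475 for 6 Treg genes, 14.2 to 131 against 16.2 to 147 for 2 CD8 T cell genes, 12.6 to 17.5 against 16.7 to 19.3 for 4 B cell genes, 0.0903 to 9.36 against 2.72 to 5.69 for 3 natural killer genes, 16.7 to 24.6 against 8.69 to 16.5 for 4 myeloid genes and 1.87 to 3.11 against 1.46 to 2.75 for 3 dendritic cell genes. The natural killer marker Ncr1 was at 0 counts in all libraries, the dendritic marker Xcr1 had 2 counts in total, and Itgam made up nearly all of the myeloid sum. The part of these lists in the results below was not tested, and in bulk RNA fewer cells of a type and less RNA per cell cannot be told apart.

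Differences between Ezh2-deficient and WT Tregs in these transcripts were few, and 5 of the 40 tested passed edgeR's quasi-likelihood test at an adjusted p of 0.05 (12.5%). Over all 13685 tested genes 21.9% passed, so the members' share was below the share in the whole table. Chd9 and Chd7, ATP-driven motors of the CHD family, were higher in Ezh2-deficient Tregs (2 of 40, beside 13.1% of all tested genes), and Actl6a, Smarcd2 and Mta2, subunits of SWI/SNF and NuRD, were lower (3 of 40, beside 8.8%). The libraries of the 2 groups did not overlap in CPM for 4 of the 40 (10%), beside 21.2% of all tested genes. Of the 40, 10 had an unadjusted p under 0.05, beside 5069 of the 13685 tested genes, which is a larger share. The median log2 fold change, Ezh2-deficient over WT, was -0.04 over the members and 0.00 over all tested genes, with 14 members positive and 26 negative.

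The sizes of the differences were small. The median absolute log2 fold change was 0.11 over the members, 0.24 over all tested genes and 0.19 over the 8172 tested genes with a mean CPM within the members' range, of which 24% were called. A change of over 1.5-fold was estimated for 2 members (5%), for 8.37% of the tested genes within the members' CPM range and for 19.5% of all tested genes. For 37 of the 40 the 95% interval of the fold change lay within 1.5-fold either way, and this held for 34 of the 35 that did not pass, Mbd3 being the exception. The median coefficient of variation over WT libraries was 9.94% in the members, 10.5% in the tested genes within their CPM range and 14.3% in all tested genes.

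**Figure D1:**
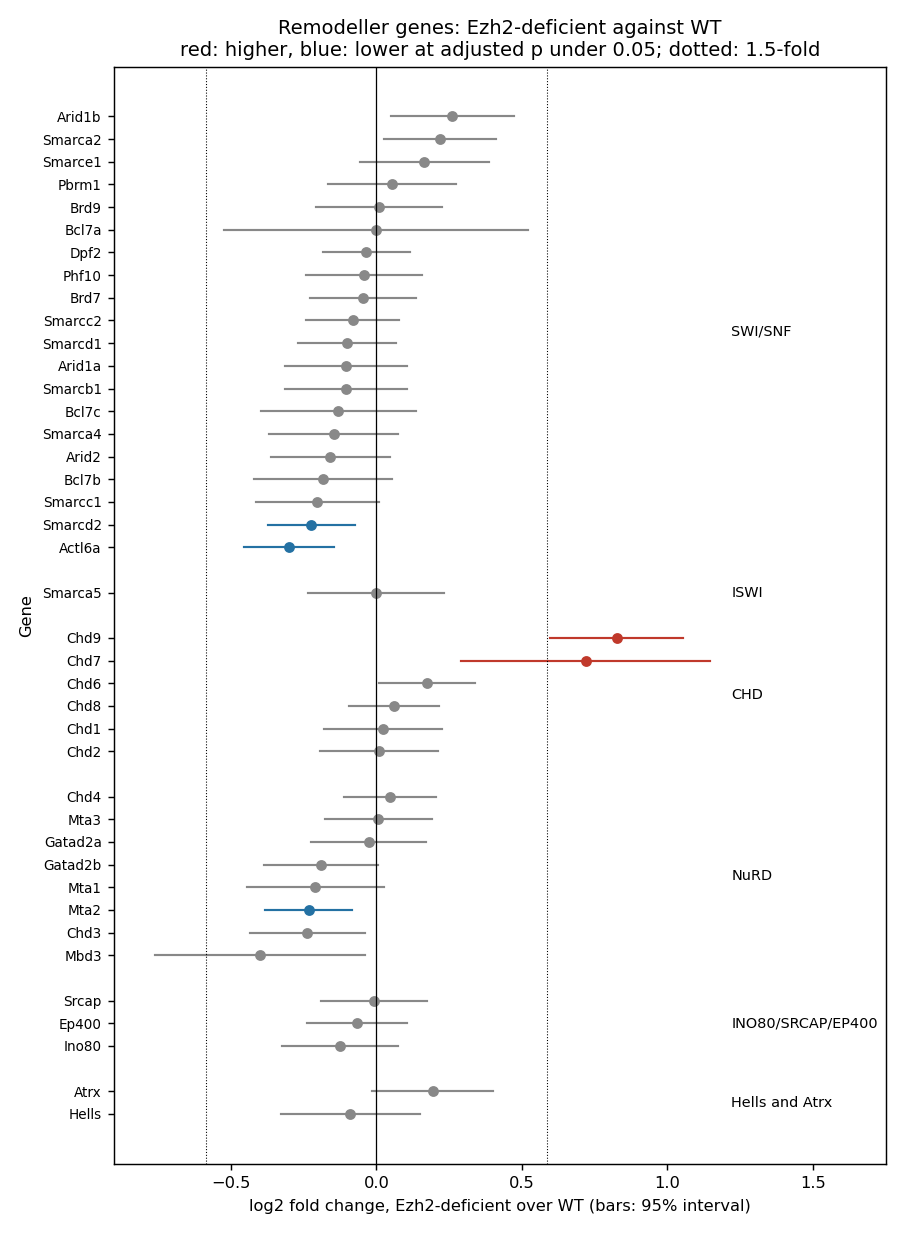
Log2 fold change of each of the 40 tested remodeller genes, Ezh2-deficient (n = 4) over WT (n = 5), with its 95% interval from edgeR on the horizontal axis and genes grouped by complex on the vertical axis. Red points passed as higher and blue points as lower at an adjusted p of 0.05, grey points did not pass, dotted lines mark 1.5-fold, and Chd9 (0.83) and Chd7 (0.72) lie farthest from 0.

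The CHD family held both rises. Its ATPases carry paired chromodomains, which read methylated histone tails, and 6 of its members outside NuRD were examined and all 6 were tested. Of these, 2 rose (Chd9 and Chd7), none fell and 4 did not pass, with a median log2 fold change of 0.12. The 2 rises were 33.3% of the 6, beside 13.1% of all tested genes.

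Chd9, a large CHD ATPase of the same subfamily as Chd7, had the largest change of the 40. It lies at chr8:90828352-91054516 (GRCm38, plus strand). It was at 116, 108, 131 and 111 CPM against 75.4, 74.5, 54.7, 59.8 and 63.8 CPM. Every Ezh2-deficient library was above every WT library. The means were 116 ± 10.05 (SD, n = 4) and 65.7 ± 9.08 (SD, n = 5), a 1.77-fold rise (log2 fold change 0.83, SE 0.11, edgeR adjusted p = 0.000323). The call held in 21 of 21 alternative fits, with log2 fold changes of 0.70 to 0.98 and adjusted p of 9.22e-11 to 0.0254.

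Chd7, which binds enhancers and is the gene mutated in CHARGE syndrome, lies at chr4:8690406-8867659 (GRCm38, plus strand). It was at 213, 153, 165 and 232 CPM against 128, 122, 76.3, 156 and 98.2 CPM. In all, 3 of the 4 Ezh2-deficient libraries were above all WT libraries, and Ezh2-deficient replicate 2 was just below WT replicate 4. The means were 191 ± 37.9 (SD, n = 4) and 116 ± 30.2 (SD, n = 5), a 1.65-fold rise (log2 fold change 0.72, SE 0.19, edgeR adjusted p = 0.0233).

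The Chd7 call held in 16 of 21 alternatives, with adjusted p from 0.000119 to 0.0825. It was lost without a filter on low counts (adjusted p = 0.076) and without Ezh2-deficient replicate 1 (0.0761), Ezh2-deficient replicate 4 (0.0825), WT replicate 2 (0.0511) or WT replicate 5 (0.053), where the log2 fold change was 0.59 to 0.71.

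Within a group, Chd7 was higher in the libraries with the higher hypoxia score. Ezh2-deficient replicates 1 and 4 were at 213 and 232 CPM and replicates 2 and 3 at 153 and 165 CPM, and WT replicates 1, 2 and 4 were at 122 to 156 CPM and replicates 3 and 5 at 76.3 and 98.2 CPM. With the score as a covariate the log2 fold change was 0.81 (edgeR adjusted p = 0.000119). Within the higher-score libraries alone it was 0.72 (adjusted p = 0.00917) and within the lower-score libraries alone 0.84 (adjusted p = 0.0384). The groups did not overlap within either set. These sets were chosen after seeing the data and held only 2 or 3 libraries of a group, so groups can easily be apart by accident. For Chd9 the same settings gave 0.84, 0.70 and 0.98 (adjusted p = 0.000253, 0.00699 and 0.0254).

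**Figure D2:**
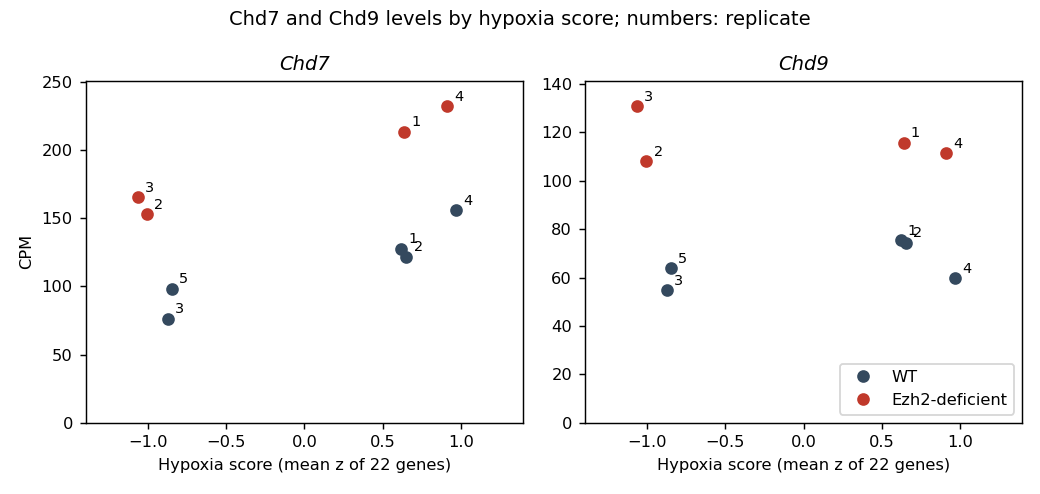
CPM of Chd7 and Chd9 (vertical axes) against the hypoxia score of each library (horizontal axis, mean z score of 22 genes), with points coloured by group and numbered by replicate. In Chd7 the 4 lower-score libraries sit below the libraries of the same group with higher scores, and at each side of the axis the Ezh2-deficient points are above the WT points.

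The other 4 CHD members did not pass. Chd1, which binds trimethylated lysine 4 of histone H3, had a log2 fold change of 0.02 (SE 0.09). Chd2, its close paralogue, was at 0.01 (SE 0.09), and its exons share 2628 bases with the processed transcript 1810026B05Rik on the same strand. Chd6 was at 0.17 (SE 0.08, edgeR adjusted p = 0.113), with an unadjusted p under 0.05, and Chd8, a binder of beta-catenin and the gene mutated in a form of autism, at 0.06 (SE 0.07).

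In SWI/SNF, 2 of 20 tested members fell, none rose and 18 did not pass, with a median log2 fold change of -0.09. The falls were 10% of these members, near the 8.8% of all tested genes that fell, and 13.1% of all tested genes rose. The 2 that fell were Actl6a and Smarcd2. Smarcd3, the third of the Smarcd paralogues, was not tested, since it held 46 counts over the 4 Ezh2-deficient and 40 over the 5 WT libraries, and its exons overlap the antisense gene Chpf2 over 2466 bases.

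Actl6a (BAF53A), an actin-related subunit of SWI/SNF and of the INO80 and TIP60/EP400 complexes, is the form used by dividing progenitors. It lies at chr3:32706298-32726973 (GRCm38, plus strand). It was at 108, 118, 116 and 111 CPM against 138, 144, 149, 125 and 143 CPM. Every Ezh2-deficient library was below every WT library. The means were 113 ± 4.54 (SD, n = 4) and 140 ± 9.04 (SD, n = 5), an 18.8% fall (log2 fold change -0.30, SE 0.07, edgeR adjusted p = 0.0116).

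The Actl6a call held in 19 of 21 alternatives, with log2 fold changes of -0.34 to -0.29 and adjusted p of 0.000347 to 0.145. The exceptions were the fits within the higher-score libraries alone (adjusted p = 0.0594) and the lower-score libraries alone (0.145). The exons of Actl6a overlap those of the antisense gene Mrpl47 over 452 bases, and Mrpl47 had a log2 fold change of -0.25 (edgeR adjusted p = 0.175). Whether the counting used the strand is not known, so the 2 genes may share reads there.

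Smarcd2 (BAF60B), one of 3 alternative Smarcd subunits that link the complex to transcription factors, lies at chr11:106263179-106272972 (GRCm38, minus strand). It was at 168, 174, 167 and 151 CPM against 204, 191, 192, 184 and 193 CPM. The groups did not overlap. The means were 165 ± 10.1 (SD, n = 4) and 193 ± 7.40 (SD, n = 5), a 14.3% fall (log2 fold change -0.22, SE 0.07, edgeR adjusted p = 0.0354). The call held in 12 of 21 alternatives, with adjusted p from 0.00474 to 0.337. It was lost without Ezh2-deficient replicate 1 (adjusted p = 0.0561), replicate 3 (0.0624) or replicate 4 (0.0734), or without WT replicate 1 (0.0559). The other losses were with the replicate number as a block, with sex as a covariate, in either hypoxia-score set and without the highest-Cd8a libraries.

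The SWI/SNF motors are Smarca4 (BRG1) and Smarca2 (BRM), of which a complex holds either one. Smarca4 was at 250, 289, 275 and 212 CPM against 301, 274, 324, 262 and 260 CPM. The groups overlapped (log2 fold change -0.15, SE 0.10, edgeR adjusted p = 0.318, 95% interval -0.37 to 0.07). Smarca2 was at 96.0, 112, 116 and 98.4 CPM against 94.5, 103, 87.9, 85.6 and 82.9 CPM. Ezh2-deficient replicates 2 and 3 were above all WT libraries and replicates 1 and 4 were not (log2 fold change 0.22, SE 0.09, edgeR adjusted p = 0.0926).

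The ARID subunits define the kinds of SWI/SNF complex, Arid1a and Arid1b belonging to BAF and Arid2 to PBAF. Arid1a was at 419, 477, 482 and 382 CPM against 510, 490, 497, 403 and 464 CPM, with overlapping groups (log2 fold change -0.10, SE 0.10, edgeR adjusted p = 0.459). Arid1b was at 143 ± 14.6 against 119 ± 12.3 CPM, a log2 fold change of 0.26 (SE 0.10, edgeR adjusted p = 0.0706), and it passed without Ezh2-deficient replicate 4 (0.31, adjusted p = 0.037). Arid2 was at -0.16 (SE 0.09). Among other PBAF subunits, the bromodomain proteins Pbrm1 and Brd7 were at 0.05 and -0.05 and Phf10 at -0.04, and Brd9, the bromodomain subunit of the non-canonical complex, was at 0.01.

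The remaining core and accessory subunits, none of which passed, had log2 fold changes between -0.20 and 0.17. The core subunit Smarcb1, a tumour suppressor, was at -0.10. The scaffold Smarcc1 was at -0.20 (edgeR adjusted p = 0.149) and passed without WT replicate 4 (-0.27, adjusted p = 0.0349), and its paralogue Smarcc2 was at -0.08. Smarcd1 was at -0.10, the HMG-domain subunit Smarce1 at 0.17, and the PHD-finger subunit Dpf2 at -0.03. Of the Bcl7 proteins, Bcl7a was at 0.00 with a wide 95% interval of -0.52 to 0.52, Bcl7c at -0.13, and Bcl7b at -0.18, which passed without Ezh2-deficient replicate 2 (-0.31, adjusted p = 0.0449).

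In NuRD, 1 of 8 tested members fell (Mta2), none rose and 7 did not pass, with a median log2 fold change of -0.20. That 1 fall was 12.5% of the 8, near the 8.8% of all tested genes that fell. Mta2, one of 3 MTA scaffold proteins that hold the deacetylases in the complex, lies at chr19:8941875-8952303 (GRCm38, plus strand). It was at 322, 327, 340 and 317 CPM against 400, 393, 380, 349 and 397 CPM. The groups did not overlap. The means were 326 ± 9.87 (SD, n = 4) and 384 ± 20.8 (SD, n = 5), a 14.9% fall (log2 fold change -0.23, SE 0.07, edgeR adjusted p = 0.0303). The call held in 15 of 21 alternatives, with adjusted p from 0.00149 to 0.265. It was lost without Ezh2-deficient replicate 1 (0.0605) or replicate 4 (0.0538) and with sex as a covariate (0.0539). The other losses were with the replicate number as a block and in either hypoxia-score set.

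The NuRD motors are Chd4 and Chd3. Chd4 (Mi-2 beta) was at 839, 924, 914 and 836 CPM against 896, 884, 813, 841 and 819 CPM. The groups overlapped (log2 fold change 0.05, SE 0.07, edgeR adjusted p = 0.682, 95% interval -0.11 to 0.20). Chd3 was at 838 ± 101 CPM and, in WT, 988 ± 46.9 CPM, a log2 fold change of -0.24 (SE 0.09, edgeR adjusted p = 0.0787), and it passed in 3 of 21 alternatives: DESeq2 (adjusted p = 0.0334), the hypoxia score as a covariate (0.0341) and the higher-score libraries alone (0.0447).

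Mbd3, a methyl-CpG-binding-domain subunit, was at 79.1, 87.9, 70.8 and 58.3 CPM against 94.8, 85.7, 126, 112 and 70.6 CPM. WT replicate 5 was lower than 3 of the 4 Ezh2-deficient libraries. The log2 fold change was -0.40 (SE 0.17, edgeR adjusted p = 0.0998), the largest among the members that did not pass, and without WT replicate 5 it was -0.51 (adjusted p = 0.0284). Of the other scaffolds, Mta1 was at -0.21 (SE 0.11) and Mta3 at 0.01 (SE 0.09), and the GATA-type zinc-finger subunits Gatad2a and Gatad2b were at -0.03 and -0.19.

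**Figure D3:**
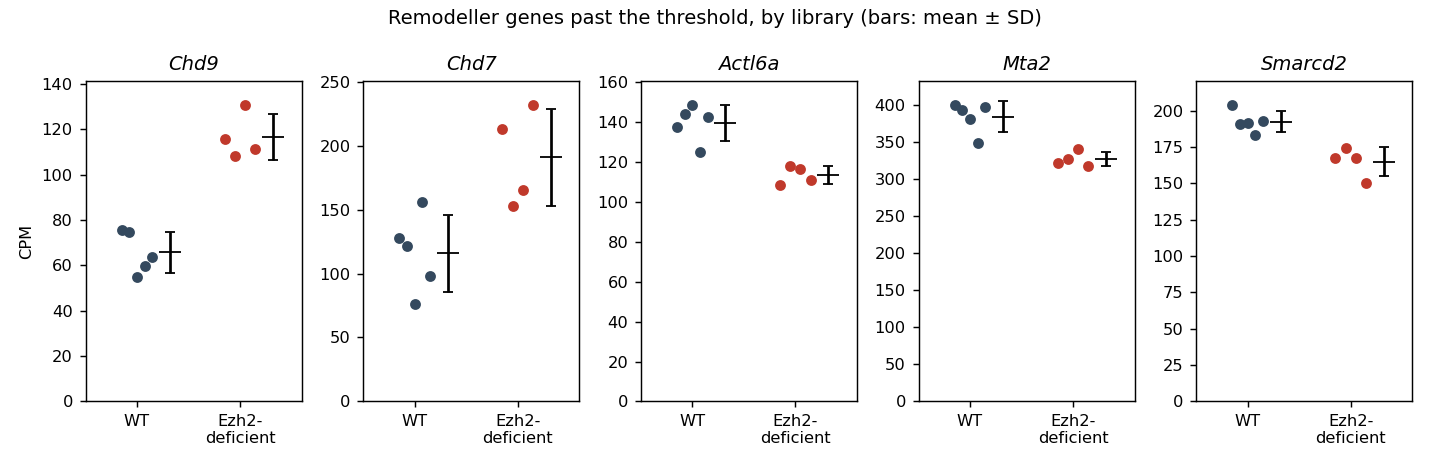
CPM of the 5 remodeller genes that passed the test in each library (vertical axis, from 0), WT on the left and Ezh2-deficient on the right of each panel, with points in replicate order and bars for the mean ± SD. The groups are apart in Chd9, Actl6a, Smarcd2 and Mta2 and meet in Chd7, where Ezh2-deficient replicate 2 (153 CPM) is below WT replicate 4 (156 CPM).

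No ISWI, INO80-type, Hells or Atrx transcript passed edgeR's test among 6 tested, and none of the 6 had an unadjusted p under 0.05. Of all tested genes, 21.9% passed. Smarca5 (SNF2H), the ISWI motor of most cells, was at 79.9 ± 8.47 and, in WT, 80.0 ± 9.99 CPM, a log2 fold change of 0.00 (SE 0.11). Its paralogue Smarca1 was not tested, with 2 counts in Ezh2-deficient replicate 4 and 0 in all other libraries, where 3 counts over the WT group would be 0.0138 CPM, a limit that covers counting error only. Ino80, Srcap and Ep400, the motors of the complexes named after them, were at -0.12, -0.01 and -0.07.

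Hells, a helicase needed for DNA methylation in repeats, was at 146, 144, 159 and 134 CPM against 160, 161, 165, 116 and 174 CPM, and the groups overlapped (log2 fold change -0.09, SE 0.11, edgeR adjusted p = 0.59). Atrx, an X-linked remodeller that deposits histone H3.3 in heterochromatin with Daxx, was at 579, 483, 553 and 614 CPM against 535, 543, 470, 434 and 455 CPM. In all, 3 of the 4 Ezh2-deficient libraries were above all WT libraries and replicate 2 was not (log2 fold change 0.19, SE 0.10, edgeR adjusted p = 0.162).

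For 34 of the 42 genes, RefSeq start sites on GRCm38.p6 gave 40 windows of the 250 bases upstream of a start; Arid2, Bcl7a, Chd1, Chd2, Chd3, Chd7, Mta3 and Smarce1 had none. These windows were rich in CpG, the dinucleotide that DNA methylation targets and that Polycomb-bound promoters are dense in, with a median of 21.5 per window against 6 over 32851 windows of all genes. At least 10 CpG were present in 36 of the 40 (90%), against 37.8% of all windows. The GC box GGGCGG, searched on both strands, was present in 87.5% of the members' windows and 32.7% of all windows, and it shares its G and C letters with the CpG count. The motif CCAAT, on both strands, was in 27.5% against 33.8%, and TATAAA, on both strands, in 5% against 12.4%. The windows of all genes cover 27025 genes, more than the 13685 tested here, so many belong to genes that were not tested. Nearly all members were tested, and no comparison was made with the windows of tested genes alone.

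The stretches free of annotated exons are shown for the 3 genes that fell, on the gene's strand, with matches to the GC box (Actl6a and Mta2) or to TATAAA (Smarcd2) in capitals. The Actl6a stretch is chr3:32708296-32708506 (plus strand, 16 CpG), upstream of the RefSeq start, which lies inside the longer GENCODE gene. The Mta2 stretch is chr19:8941670-8941874 (plus strand, 19 CpG). The Smarcd2 stretch is chr11:106267800-106267882 (minus strand, 0 CpG), at a RefSeq start that also lies inside the GENCODE gene, and its whole window held 4 CpG and 2 GC boxes, both outside the stretch shown. The first Chd9 window, with 16 CpG and 1 GC box, begins in annotated exon sequence, so no stretch of it is shown. The second, chr8:90931999-90932248 (plus strand), is free of annotated exons, held 1 CpG and no GC box, and is not shown. A match describes letters only.
Actl6a: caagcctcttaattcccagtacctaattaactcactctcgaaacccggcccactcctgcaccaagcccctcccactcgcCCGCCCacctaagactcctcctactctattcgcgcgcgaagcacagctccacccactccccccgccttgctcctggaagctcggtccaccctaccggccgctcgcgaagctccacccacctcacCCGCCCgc
Mta2: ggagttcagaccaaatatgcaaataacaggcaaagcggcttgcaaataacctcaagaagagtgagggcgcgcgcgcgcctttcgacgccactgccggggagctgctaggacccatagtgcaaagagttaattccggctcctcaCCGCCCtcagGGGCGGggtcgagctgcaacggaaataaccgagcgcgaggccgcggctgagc
Smarcd2: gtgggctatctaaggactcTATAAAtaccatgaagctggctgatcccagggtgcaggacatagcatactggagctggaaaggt

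Levels between genes were compared as CPM per kb of exon, on the union of a gene's GENCODE exons. In WT libraries the NuRD subunits Chd3 (117 ± 5.55), Chd4 (106 ± 4.72) and Mta2 (93.7 ± 5.09) were the highest of the 42. Next came Smarcd2 (53.7 ± 2.06), Mbd3 (49.2 ± 10.9), Smarcc2 (44.1 ± 2.02), Smarca4 (43.9 ± 4.29) and Arid1a (41.2 ± 3.72), and the last 4 of these did not differ beyond their spread. Smarca4 was thus above Smarca2 (6.36 ± 0.56), and Arid1a above Arid1b (9.47 ± 0.98). Among tested members Bcl7c (2.04 ± 0.22), Bcl7a (2.08 ± 0.49) and Chd9 (2.84 ± 0.39) were lowest. The gene with the largest change was thus among the least abundant per kb. In CPM, not divided by length, Chd9 was at 65.7 in WT, beside 14.7 for Bcl7c and 19.7 for Bcl7a. The 2 rises left Chd9 at 5.03 and Chd7 at 13.8 CPM per kb in Ezh2-deficient Tregs, from 2.84 and 8.41.

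**Figure D4:**
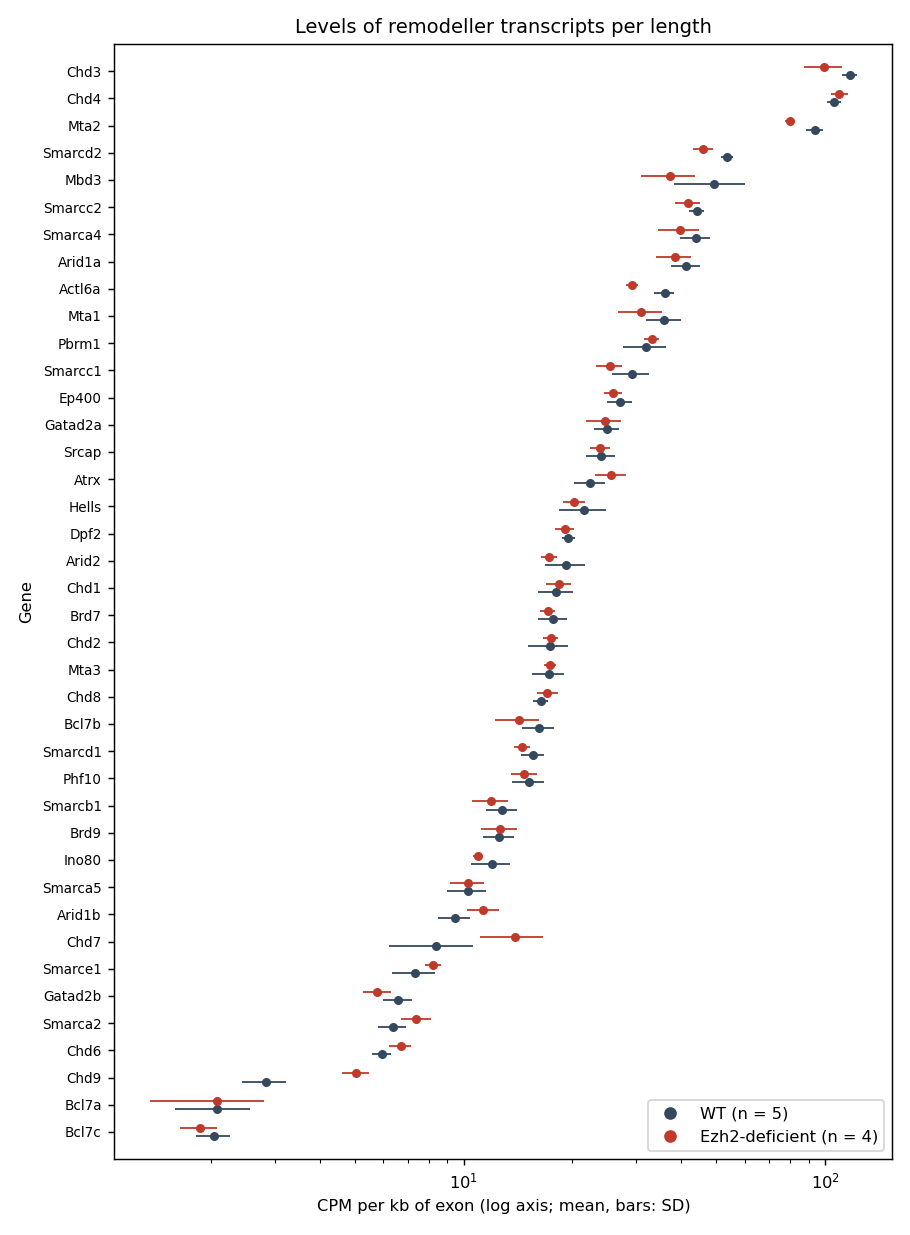
CPM per kb of exon of each tested remodeller gene in Ezh2-deficient and WT Tregs (log axis), shown as group means with SD over 4 and 5 libraries and ordered by the WT level. Chd3, Chd4 and Mta2 stand at the top in WT cells (117, 106 and 93.7), and Chd9 is near the bottom (2.84 in WT).

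Alternative subunits were compared as ratios within each library, which cancels depth, for 15 pairs of paralogues. None of the 15 passed after Benjamini-Hochberg adjustment of a two-sided exact permutation test, 3 had a raw p under 0.05, and 0.0159 is the smallest p that 4 against 5 libraries allow. At that p, 5 of the 15 pairs would be needed for any to pass, so a single pair could not. The 3 pairs described below were picked by their raw p, and ratios of other gene pairs were not computed for comparison. Smarca2 per Smarca4, per exon length, was 0.174, 0.176, 0.192 and 0.211 against 0.143, 0.170, 0.123, 0.149 and 0.145 in WT. No library of one group reached the other (log2 change 0.37, exact permutation p = 0.0159, adjusted 0.119).

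Chd3 per Chd4 was 0.917, 0.932, 0.964 and 0.803 against 1.04, 1.07, 1.23, 1.11 and 1.07 in WT. Chd3 was the more abundant motor per length in all 5 WT libraries and the less abundant in all 4 Ezh2-deficient ones (log2 change -0.29, exact permutation p = 0.0159, adjusted 0.119). Which motor was ahead depends on the exon lengths used. In plain CPM Chd3 was above Chd4 in Ezh2-deficient replicate 3 (928 against 914) and below it in replicates 1, 2 and 4. Arid1b per Arid1a was 0.327, 0.282, 0.288 and 0.289 against 0.205, 0.233, 0.235, 0.289 and 0.195 in WT, and WT replicate 4 was above Ezh2-deficient replicates 2 and 3 (log2 change 0.37, exact permutation p = 0.0476, adjusted 0.238).

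**Figure D5:**
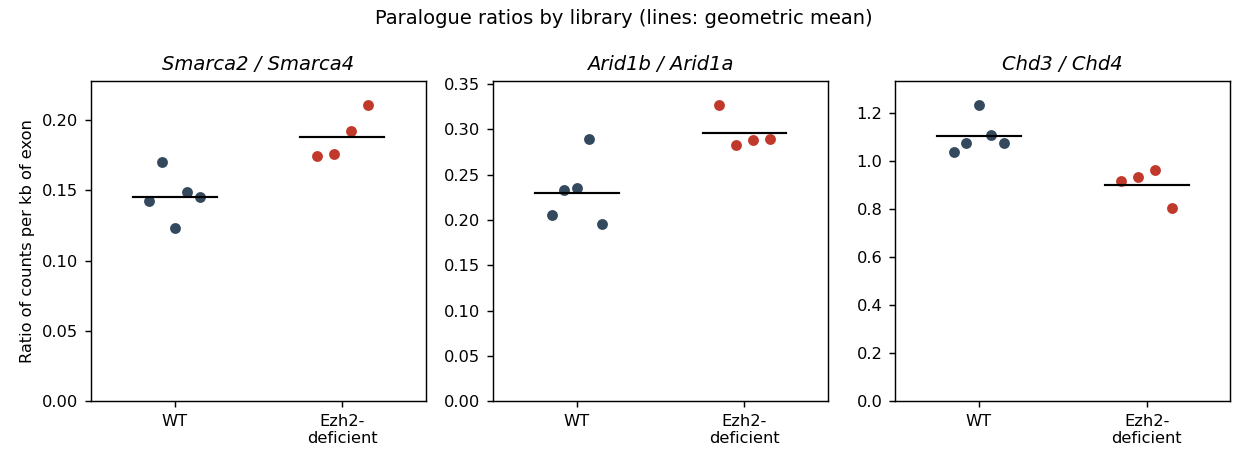
Ratio of Smarca2 to Smarca4, Chd3 to Chd4 and Arid1b to Arid1a per exon length in each library (vertical axes, from 0), with points in replicate order and a line at the geometric mean of each group. The groups are apart for the first 2 pairs (adjusted p = 0.119 each) and overlap for Arid1b to Arid1a.

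A further 63 genes of the same complexes or the wider SNF2 family were examined beside the 42, and 60 of the 63 were tested. They too were chosen with earlier results of these data known. Among them 2 rose and 7 fell (15%), beside 21.9% of all tested genes, with a median log2 fold change of -0.11. Baz2b, a bromodomain partner of ISWI motors, was at 104, 108, 109 and 109 CPM against 36.1, 34.4, 34.1, 33.0 and 30.1 CPM. All Ezh2-deficient libraries were above all WT libraries (log2 fold change 1.68, SE 0.07, edgeR adjusted p = 1.29e-07), and the call held in 21 of 21 alternatives. Rsf1, a histone-binding partner of Smarca5, had a log2 fold change of 0.31 (SE 0.10, adjusted p = 0.0406), which held in 8 of 21 alternatives and was lost without any 1 of the 4 Ezh2-deficient libraries or WT replicate 2, 3 or 4 (adjusted p of 0.0712 to 0.143).

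Genes that fell included Actb, the actin subunit of SWI/SNF and the main cytoskeletal actin, at 3743 ± 210 against 4742 ± 345 CPM (log2 fold change -0.34, edgeR adjusted p = 0.0125). Rbbp7, a histone chaperone shared by NuRD and Polycomb repressive complex 2, was at 319 ± 15.6 against 400 ± 37.2 CPM (-0.32, edgeR adjusted p = 0.0168). Ruvbl2, a AAA+ ATPase of INO80, SRCAP and EP400 complexes, was at 50.2 ± 4.63 against 75.6 ± 18.1 CPM (-0.59, edgeR adjusted p = 0.0193). Ino80e of INO80 was at -0.39 (adjusted p = 0.0163), Meaf6 of the TIP60 complex at -0.42 (0.0156) and Chrac1 of an ISWI complex at -0.32 (0.022), all by edgeR, and Ruvbl2 and Chrac1 did not pass without Ezh2-deficient replicate 3 (0.0514 and 0.0542).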

How the data were processed

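Per the labels, RNA of 9 Treg cultures was made into stranded mRNA libraries (TruSeq) and sequenced on an Illumina HiSeq. The authors deposited whole-number counts per Ensembl gene, not normalized; STAR and GRCm38 are named in the submitters' processing notes, and how reads were counted (program, strandedness, gene models) is not given in the sources used here. Symbols came from GENCODE M21 (42548 of 43432 identifiers matched). Without known strandedness, overlapping and antisense genes may share reads.

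Low-count genes were removed with filterByExpr, libraries scaled by TMM, and genes tested with edgeR 4.0.16 (R 4.3.3; robust quasi-likelihood, two-sided, Benjamini-Hochberg over all 13685 tested genes, threshold 0.05, biological coefficient of variation 0.206). SE is the absolute log2 fold change over the square root of F. All adjusted p values of genes come from this test unless a sentence names another. Expression levels are CPM with TMM, mean ± SD over 4 and 5 libraries; CPM per kb used union exons. Paralogue ratios (counts plus 0.5) were compared by exact permutation over 126 splits (SciPy 1.17.1). The main edgeR test was tried on simulated counts with known changes. The permutation test and the alternative fits were not. P-values measure the spread between these cultures.

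The members, the 63 further genes and the other lists were chosen with earlier results of these data known. Named with values in every library were the members past the threshold and Smarca4, Smarca2, Arid1a, Chd4, Chd7, Hells, Atrx and Mbd3; also named were, of the further genes, the 8 past the threshold with the smallest adjusted p (by library for the first, otherwise by mean or fold change) and the pairs with raw p under 0.05. Alternatives were 2 other scalings, 2 filters, DESeq2 1.42.0, limma-voom (limma 3.58.1), the replicate number as a block and each library left out, and, chosen after seeing the data, sex or the hypoxia score as a covariate, the higher- or lower-score libraries alone, and dropping, in each group, the library richest in Cd8a. Promoter windows came from RefSeq on GRCm38.p6. No 2 libraries were duplicates (lowest chi-square per degree of freedom 21.9 over 36 pairs).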

Additional observations from a re-analysis of the deposited data

Results flagged for a closer look

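In 80 groups of 4 or 5 libraries (40 tested remodeller genes in each genotype), 8 had a single library set apart from the rest by Dixon's criterion, where chance gives about 1 in 20, or 4. Ezh2-deficient replicate 4 was the library apart in 4 of them. In it Arid1b was at 121.2 CPM (others 147.8 to 152.5), Dpf2 at 112.7 (126.6 to 128.9) and Ep400 at 330.8 (369.7 to 375.3), all lower, and Chd2 at 266.6 (242.4 to 243.0), higher. WT replicate 4 was low in Smarca5 (62.41 CPM, others 81.45 to 86.35) and Hells (115.7 CPM, others 160.1 to 174.2). These libraries also had the lowest proliferation scores (-1.04 and -1.18) and the highest Cd8a of their groups (79.9 and 97.6 CPM), and the part of either in these values was not tested. Bcl7b was high in Ezh2-deficient replicate 2 (41.21 CPM, others 30.86 to 32.31), and Chd6 was high in WT replicate 2 (125.8 CPM, others 107.7 to 112.1).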

How the results depend on the processing

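Of the remodeller genes, 2 rose and 3 fell; of the 63 further genes, 2 rose and 7 fell. No result changed sign past the threshold under any alternative run. The count of remodeller genes that rose was 1 with no filter and 1 to 2 when each library was left out in turn, and it stayed at 2 or 3 in the other alternatives. The count that fell was 1 with sex as a covariate, 5 with the hypoxia score as a covariate, 1 in the higher-score libraries alone and 0 in the lower-score libraries alone, where edgeR had 4 libraries and called 570 of 13787 genes, and 1 to 4 with a library left out. For the further genes, the count that rose was 1 with no filter, 4 with a filter of 1 CPM in 4 libraries, 4 with DESeq2, 1 with sex, 5 with the hypoxia score, 1 in each score set and without the highest-Cd8a libraries, and 1 to 3 with a library left out. The count that fell was 11 with DESeq2, 11 with the hypoxia score, 0 in the lower-score libraries, 3 without the highest-Cd8a libraries and 5 to 11 with a library left out. Over all tested genes the share called was 21.9% in the main fit. It was 12.3% with no filter, 24.5% with the 1 CPM filter, 28.9% with DESeq2, 18.3% with sex and 29.4% with the hypoxia score. The share was 12.6% in the higher-score libraries, 4.13% in the lower-score libraries and 14.7% without the highest-Cd8a libraries. With a library left out it was 14.1% to 23.4%, and with the replicate block 20.1%. The causes were not tested. Other scalings and limma-voom kept both counts within 1.5 times. With the replicate number as a block, 2 remodeller genes rose and 1 fell (Mta2 -0.22, adjusted p = 0.0966, and Smarcd2 -0.22, 0.082, did not pass), and 1 further gene rose and 7 fell. Correlations of same-numbered libraries' deviations were 0.153, -0.083, 0.114 and 0.187, and no library correlated best with its own number, so the numbers were not taken as pairs. For the paralogue ratios (0 of 15 past adjustment, also with 2 counts added), leaving out a library says nothing of stability, since the exact p cannot go below 0.0286 or 0.0357, at which 9 or 11 of the 15 pairs would be needed. The exact blocked sign-flip test cannot go below p = 0.125 and says as little.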
